A study of Mus musculus with 32 samples.

Results

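Microglia sorted from a stab wound of the mouse cortex were compared between day 14 and day 7 after injury, on the injured side alone. The comparison takes the 8 of 32 samples that come from the wound at these days, which reduce to 4 of 16 libraries: 1 female and 1 male library a day. All mice were adult C57BL/6 animals heterozygous for Cx3cr1CreER, which places a tamoxifen-dependent recombinase under the control of the Cx3cr1 locus. They were 8 to 10 weeks old at the start of tamoxifen, given at 180 mg/kg on 5 consecutive days, so that microglia carried EYFP before the cortex was stabbed. EYFP+ cells were then sorted from dissociated cortex at the wound (the injured groups) or at the matching place of the other hemisphere (the non-injured groups, used here in 1 comparison at the end). The recombinase and the tamoxifen are thus common to every group, and no untouched mouse is among the samples analysed here. The Cx3cr1 locus is also active in border-associated macrophages and in some monocytes, and the sort rests on EYFP alone as far as the labels say.

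Microglia are the resident macrophages of the brain. After a penetrating wound they leave the surveying state marked by receptors such as P2ry12, divide near the lesion, take up debris and secrete cytokines, and much of this is known to subside in the following weeks. Type I interferon signals through its receptor to a set of antiviral genes, the interferon-stimulated genes, and cell division is read out by genes that are transcribed mostly in the late phases of the cell cycle. Both programmes are known in microglia after injury.

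Each group holds a pair of columns labelled as replicates. Within the 4 groups their counts differed by hardly more than counting noise: the median chi-square over genes was 0.493 to 0.580, where counting noise alone gives 0.455, while the female and male libraries of 1 day stood at 31.5 to 79.3. The columns of a group were therefore summed and counted as 1 sample. The series text calls its replicates biological, and with the columns kept as separate samples edgeR called 3260 genes higher (18.2%) and 1824 lower (10.2%) of 17927. The labels do not tell which samples come from separate animals, so the spread behind every test below is that between these libraries, which differ in sex as well. The 4 libraries held 20863982 to 40848878 counts. Genes detected ranged from 14737 in the day 14 female library to 33925 in the day 14 male library, with 23535 and 18732 in the day 7 female and male libraries. Counts from mitochondrial genes made up 1.07% to 4.91%. Values below are CPM, counts scaled to 1000000 of the effective library size and not divided by gene length, and a pair of values is always female then male. Females and males stand below for the 1 library a day of that sex, so sex cannot be told apart from animal, sort or library.

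The sorted cells carried the marker genes of microglia in all 4 libraries. Sall1, the transcription factor that marks microglia among brain macrophages, stood at 85.3 and 22.7 CPM at day 7 and 125 and 88.2 CPM at day 14. Siglech, C1qa, Csf1r, Aif1, P2ry12 and Tmem119 were likewise present in every library, and the lowest value of these 6 was 50.9 CPM for Siglech in the day 7 male library. The libraries did not group by day or by sex. Over the 8177 genes with a mean of 10 CPM or more, the day 14 female and male libraries had a Spearman correlation of 0.588 across genes, lower than that of the day 7 female and the day 14 male library at 0.868 (genes within libraries, given as a description). The day 7 female and male libraries stood at 0.821, and the day 7 male and day 14 female libraries at 0.742. Between the days, the female libraries stood at 0.596 and the male libraries at 0.704.

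With edgeR's quasi-likelihood test on the 8 wound libraries of all 4 days, 0 of 22040 genes passed a Benjamini-Hochberg adjusted p of 0.05 between day 14 and day 7 (0% called), and the smallest adjusted p was 0.549. An unadjusted p under 0.05 was reached by 733 genes that were higher at day 14 (3.33%) and by 482 that were lower (2.19%), which makes 1215 (5.51%) in all. DESeq2 on the same counts called 36 higher (0.163%) and 55 lower (0.25%). Leaving out the day 14 male library, edgeR called 117 higher (0.482%) and 510 lower (2.1%) of 24264 genes, and leaving out the day 7 female library it called 15 (0.0542%) and 23 (0.083%). What follows therefore gives measured levels, and no gene is said to have changed. As a yardstick, both day 14 libraries lay below both day 7 libraries for 15.4% of all genes tested and above them for 11%, and in the 8177 genes of 10 CPM or more for 24% and 9.01%. These shares apply to every list count below, and a list near them does not stand out from all genes. The median fitted log2 difference, day 14 over day 7, was 0.22 over all genes tested and -0.23 over those at 10 CPM or more. With a pair of libraries a day, an exact permutation test of a single value cannot go below p = 0.333.

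Of the 39 lists, mitosis was the one most uniformly lower at day 14. All 32 tested members of the list had both day 14 libraries below both day 7 libraries, against 15.4% of all genes and 24% of those at 10 CPM or more. An unadjusted edgeR p under 0.05 in that direction was reached by 27 of the 32, against 2.19% of all genes. Their summed level was 856 and 1093 CPM at day 7 and 78.1 and 228 CPM at day 14, a level 10.96-fold lower in females and 4.80-fold lower in males. Top2a, the topoisomerase that untangles chromosomes before they part, stood at 65.96 and 84.4 CPM at day 7 and 4.21 and 25.3 CPM at day 14 (log2 difference -2.33, SE 0.88). Mki67, a protein of the surface of mitotic chromosomes and a standard marker of dividing cells, stood at 55.5 and 72.3 CPM at day 7 and 4.06 and 20.9 CPM at day 14 (log2 difference -2.36, SE 0.85). In both genes the day 14 male library was the higher of the day 14 pair and lay below either day 7 library.

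Tpx2, which builds the spindle around chromosomes, was the mitotic gene among the 14 lower genes of smallest p, at 37.6 and 50.7 CPM at day 7 and 4.66 and 5.30 CPM at day 14 (log2 difference -3.19, SE 0.80). Its day 14 values were close to each other, unlike those of Mki67. The following members were chosen after their values were seen. Birc5, which encodes survivin of the chromosomal passenger complex, stood at 34.3 and 56.2 CPM at day 7 and 5.005 and 5.58 CPM at day 14, and Cdca3, a trigger of mitotic entry, at 22.4 and 18.6 CPM at day 7 and 0 and 0.442 CPM at day 14. These 2 genes and Tpx2 were the 3 members that DESeq2 called, with adjusted p of 0.0337, 0.000367 and 0.0237. Ccnb2, a cyclin that activates Cdk1, stood at 49.2 and 76.8 CPM at day 7 and 0 and 4.98 CPM at day 14. Without the day 14 male library, edgeR called 19 of the 32 lower, against 2.1% of all genes. At 0 counts in the day 14 female library were 13 of the 32, and none was at 0 in the day 14 male library, which detected the most genes of the 4. In the day 14 female library, 0 counts allow up to 0.114 CPM (3 counts, counting error only).

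Across all 4 days at the wound, the summed mitotic level was highest in the day 4 female library at 1360 CPM, with 621 CPM in the day 4 male library, and stood at 426 and 176 CPM at day 1. The female libraries were thus highest at day 4 and the male libraries at day 7, and in both the day 14 value was below the values of day 4 and day 7. In bulk libraries, fewer dividing cells and less of these RNAs per cell cannot be told apart.

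**Figure D1:**
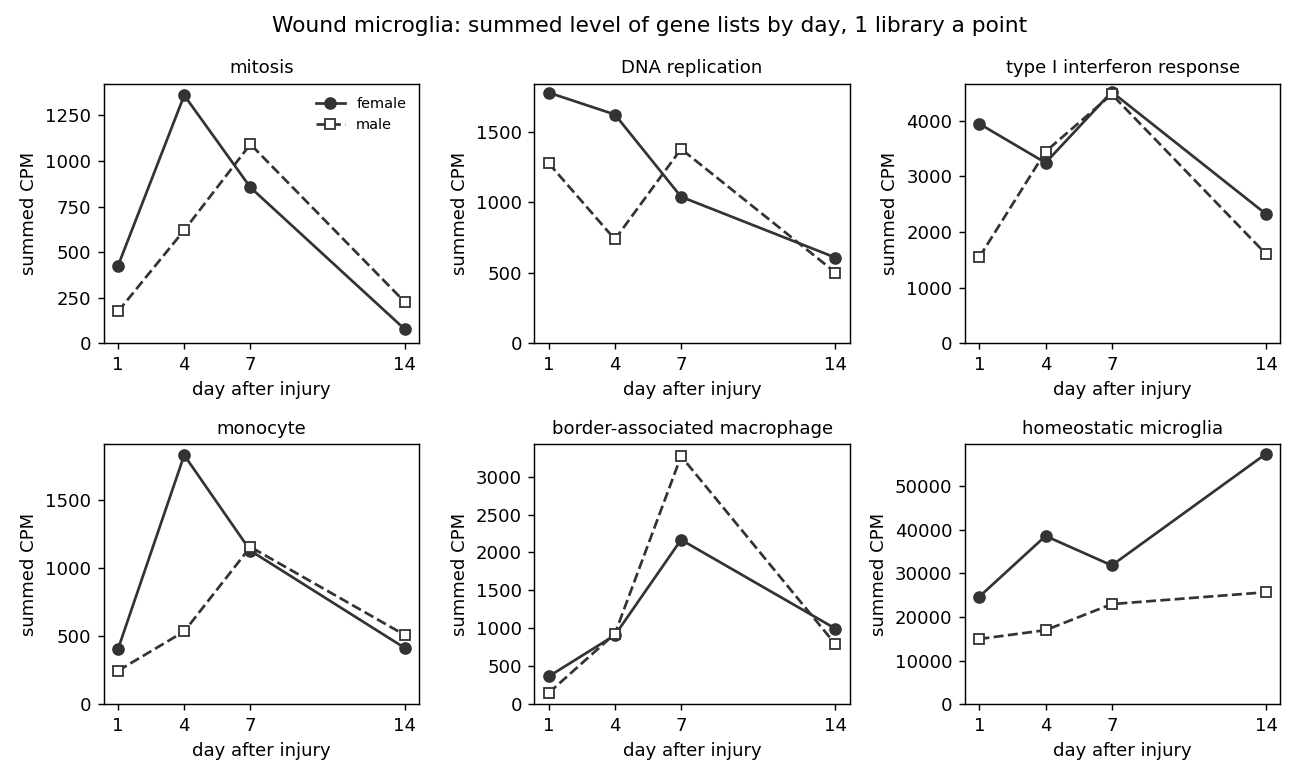
Summed CPM of gene lists (vertical axis, linear from 0) against the day after injury (horizontal axis) in wound microglia, with 1 library a point, females as filled circles and males as open squares. For mitosis the day 14 points, 78.1 and 228 CPM, lie under the day 7 points at 856 and 1093 CPM.

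Most of the mitotic genes matched hold the same promoter letters. Late cell cycle genes are known to be controlled through the cell cycle genes homology region, read here as TTTGAA, and through CCAAT boxes bound by NF-Y. In RefSeq promoter windows of 300 bases (250 before to 50 after the start, 1 window a gene, GRCm38.p6, both strands), TTTGAA was present in 21 of the 28 mitotic genes matched (75%), against 18.1% of 27025 genes. CCAAT was present in 22 of 28 (78.6%), against 37.9% of all genes. It was also present in 11 of 18 genes of the resting microglial state (61.1%), a list with no member lower by both day 14 libraries. In disease-associated and immediate early genes the CCAAT shares were 47.8% and 47.4%, and in interferon, NF-kB and lysosomal genes 36%, 34.8% and 30.8%. TTTGAA was in 5.56% of the resting-state genes and 17.4% of the disease-associated ones. The 24 matched genes of DNA replication had TTTGAA in 3 windows (12.5%) and CCAAT in 14 (58.3%). Matches are descriptions of letters and not of bound sites. The 160 bases before the start of 3 mitotic genes are shown because they hold both motifs close together, with TTTGAA and CCAAT, or the reverse complement of either, in capitals. They are Cdk1 (chr10:69352913-69353072, minus strand), Cdc20 (chr4:118437344-118437503, minus strand) and Kif11 (chr19:37376222-37376381, plus strand).
Cdk1: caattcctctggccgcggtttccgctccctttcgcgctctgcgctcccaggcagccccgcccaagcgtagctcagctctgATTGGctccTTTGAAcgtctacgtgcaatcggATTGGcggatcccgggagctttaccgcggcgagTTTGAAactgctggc
Cdc20: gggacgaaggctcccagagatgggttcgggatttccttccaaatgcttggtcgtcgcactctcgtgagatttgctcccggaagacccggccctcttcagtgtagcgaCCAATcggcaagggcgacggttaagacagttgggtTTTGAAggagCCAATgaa
Kif11: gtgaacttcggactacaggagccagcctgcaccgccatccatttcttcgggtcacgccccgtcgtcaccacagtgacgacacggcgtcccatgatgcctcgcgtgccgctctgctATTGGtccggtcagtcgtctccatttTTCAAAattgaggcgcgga
The homology region began 15 and 71 bases before the start in Cdk1, 18 before it in Cdc20 and 19 before it in Kif11. Cdk1, the kinase that drives entry into mitosis, stood at 26.7 and 53.9 CPM at day 7 and 8.87 and 15.4 CPM at day 14. Cdc20, the activator of the anaphase-promoting complex, stood at 36.4 and 57.4 CPM at day 7 and 0 and 4.54 CPM at day 14, and Kif11, a motor that separates the spindle poles, at 19.7 and 32.2 CPM at day 7 and 0 and 4.86 CPM at day 14.

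Genes of DNA replication were lower less uniformly. Both day 14 libraries lay below both day 7 libraries for 22 of 31 members and above them for 0. The share below was 15.4% of all genes and 24% of those at 10 CPM or more. An unadjusted edgeR p under 0.05 was reached by 7, all lower, against 2.19% of all genes. The summed level was 1039.6 and 1378 CPM at day 7 and 609 and 503 CPM at day 14, and the median log2 difference was -1.34 against -2.83 for mitosis (medians of fitted values, no test between the lists). Pcna, the sliding clamp of DNA polymerases, stood at 67.2 and 131 CPM at day 7 and 120.1 and 39.9 CPM at day 14, so that the female and male differences had opposite signs. Rfc2, a subunit of the loader of that clamp, did the same at 109 and 192 CPM at day 7 and 142 and 58.004 CPM at day 14. Other members, chosen after their values were seen, were lower in both sexes. Mcm5, a subunit of the replicative helicase, stood at 35.6 and 38.3 CPM at day 7 and 2.46 and 10.4 CPM at day 14, its partner Mcm6 at 118 and 115 CPM at day 7 and 18.05 and 61.8 CPM at day 14, and Rrm2, the small subunit of ribonucleotide reductase, at 44.2 and 62.7 CPM at day 7 and 0.0379 and 10.96 CPM at day 14.

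Interferon-stimulated genes were lower as a group, by smaller factors. Of 36 members tested, 28 had both day 14 libraries below both day 7 libraries and 0 had them above. The share below was 15.4% of all genes and 24% of those at 10 CPM or more. An unadjusted edgeR p under 0.05 was reached by 11 (2.19% of all genes lower at that threshold), all lower. The summed level was 4514 and 4469.5 CPM at day 7 and 2320.04 and 1602 CPM at day 14, and the median log2 difference was -1.42. DESeq2 called 0 of the 36. Bst2, also called tetherin, which holds budding virus at the cell surface, stood at 387 and 449 CPM at day 7 and 129 and 154 CPM at day 14 (log2 difference -1.57, SE 0.69). Its day 7 libraries were close together and well above either day 14 library.

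Other members of the list, from regulator to effectors, were chosen after their values were seen. Irf7, the factor that amplifies interferon production, stood at 255 and 169 CPM at day 7 and 36.3 and 70.5 CPM at day 14. Oas1a, which makes the second messenger of RNase L, stood at 191 and 227 CPM at day 7 and 62.5 and 56.1 CPM at day 14, and the interferon-induced protein Ifi44 at 38.5 and 36.3 CPM at day 7 and 5.57 and 7.35 CPM at day 14. Isg15, a ubiquitin-like modifier, was low throughout at 9.63 and 11.7 CPM at day 7 and 5.99 and 2.25 CPM at day 14, and Ifit3, which acts on foreign RNA, at 241 and 357 CPM at day 7 and 218 and 49.4 CPM at day 14. Rsad2, or viperin, stood at 56.3 and 45.7 CPM at day 7 and 30.1 and 12.5 CPM at day 14. Without the day 14 male library edgeR called 5 of the 36 lower: Stat2, Oas2, Oas3, Oasl1 and Mx2. These 5 stood at 8.72, 1.97, 0.114, 0 and 0 CPM in the day 14 female library and at 30.7, 18.1, 25.01, 7.67 and 6.62 CPM in the day 14 male library. Across the 4 days the summed interferon level is drawn in the plot of summed levels by day.

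The promoters of the interferon list hold the interferon-stimulated response element, searched as GAAA followed by any 2 bases and GAAA again, in 15 of 25 genes matched (60%), against 3.49% of all 27025 genes, 7.14% of the mitotic genes and 0 of 18 genes of the resting microglial state. For 4 of them the 160 bases before the start are shown with the element, or its reverse complement, in capitals, because each carries at least 2 copies and the copies overlap in Isg15, Bst2 and Oas1a. They are Isg15 (chr4:156200819-156200978, minus strand), Ifit3 (chr19:34583369-34583528, plus strand), Bst2 (chr8:71537473-71537632, minus strand) and Oas1a (chr5:120907526-120907685, minus strand), from RefSeq on GRCm38.p6.
Isg15: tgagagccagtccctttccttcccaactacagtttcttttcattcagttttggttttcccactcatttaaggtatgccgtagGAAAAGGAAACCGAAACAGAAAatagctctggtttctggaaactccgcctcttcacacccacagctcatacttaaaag
Ifit3: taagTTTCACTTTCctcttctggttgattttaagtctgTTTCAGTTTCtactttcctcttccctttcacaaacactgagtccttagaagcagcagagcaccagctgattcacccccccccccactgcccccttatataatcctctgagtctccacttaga
Bst2: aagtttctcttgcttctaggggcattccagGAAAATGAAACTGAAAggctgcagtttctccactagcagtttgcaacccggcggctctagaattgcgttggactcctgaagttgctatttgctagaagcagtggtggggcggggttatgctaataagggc
Oas1a: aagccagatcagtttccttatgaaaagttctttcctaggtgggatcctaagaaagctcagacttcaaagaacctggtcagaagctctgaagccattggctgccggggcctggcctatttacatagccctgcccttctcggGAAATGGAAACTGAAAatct
The copies began 78, 72 and 66 bases before the start in Isg15, 156 and 122 in Ifit3, 130 and 124 in Bst2, and 20 and 14 in Oas1a. All 4 genes had both day 14 libraries below both day 7 libraries. The same windows hold the AP-1 letters TGANTCA in 8 of the 25 interferon genes (32%), against 7.93% of all genes. Those letters were also in 26.1% of disease-associated genes, 21.7% of NF-kB targets and 15.4% of lysosomal genes. They were in 0 of the mitotic, DNA replication, immediate early and resting-state genes.

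Inflammatory cytokines and other NF-kB targets were lower in part. Of 31 members, 15 had both day 14 libraries below both day 7 libraries and 2 had them above, against 15.4% and 11% of all genes. At an unadjusted edgeR p under 0.05, 9 were lower and 1 higher, against 2.19% and 3.33%. Their median log2 difference was -1.11. Tnf, the cytokine that heads many inflammatory responses, stood at 339 and 157 CPM at day 7 and 49.6 and 11.3 CPM at day 14 (log2 difference -3.17, SE 0.71). Nfkbia, the inhibitor of NF-kB that is itself an NF-kB target, stood at 842 and 983 CPM at day 7 and 604 and 185 CPM at day 14, lower in both sexes. Cd86, a ligand for T cell co-stimulation, stood at 248 and 322 CPM at day 7 and 682 and 244 CPM at day 14. Members chosen after their values were seen showed both directions. Il10, the anti-inflammatory cytokine, stood at 9.81 and 11.9 CPM at day 7 and 0.227 and 0 CPM at day 14, and Ptgs2, the inducible cyclooxygenase, at 141 and 127 CPM at day 7 and 39.96 and 0.923 CPM at day 14. Il1b was close to its day 7 level in the female library and lower in the male one, at 188 and 131 CPM at day 7 and 159 and 13.05 CPM at day 14. Il6 stood at 1.09 and 2.34 CPM at day 7 and 16.8 and 3.33 CPM at day 14, the member with an unadjusted p under 0.05 that was higher.

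Chemokines and their receptors went both ways: 5 of 20 had both day 14 libraries lower and 1 higher, with a median log2 difference of -0.28. The share higher was 11% of all genes. At an unadjusted edgeR p under 0.05, 4 were lower and 1 higher, against 2.19% and 3.33% of all genes. DESeq2 called 2 lower and 0 higher, against 0.25% and 0.163%. Log2 ratios were below 0 for 10 of the 20 in females and 17 in males. The share lower by both day 14 libraries was 15.4% of all genes and 24% of those at 10 CPM or more. Chosen after their values were seen, Cxcl2, which attracts neutrophils, stood at 53.7 and 166 CPM at day 7 and 10.1 and 0.682 CPM at day 14, and Ccr1, a receptor of inflammatory chemokines, at 110.4 and 107 CPM at day 7 and 0.948 and 27.8 CPM at day 14. Cxcl9, a ligand induced by interferon gamma, was the 1 member higher, at 5.20 and 2.25 CPM at day 7 and 43.9 and 7.23 CPM at day 14. Ccr2, the receptor by which monocytes enter tissue, stood at 85.7 and 77.02 CPM at day 7 and 14.8 and 26.1 CPM at day 14 (log2 difference -1.92, SE 0.73).

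Immediate early genes, which respond to signals within minutes and also to cell dissociation, were lower in 15 of 23 members by both day 14 libraries and higher in 0. The share lower was 15.4% of all genes and 24% of those at 10 CPM or more. Their median log2 difference was -1.22, with a summed level of 13051 and 9241 CPM at day 7 and 7301 and 3531 CPM at day 14. Fos stood at 2419 and 2003 CPM at day 7 and 1482 and 479 CPM at day 14, Egr1 (chosen after its values were seen) at 1412 and 813 CPM at day 7 and 625 and 287 CPM at day 14, and the phosphatase Dusp1 at 1472 and 2764 CPM at day 7 and 1690.5 and 293 CPM at day 14. Nr4a1, a nuclear receptor that belongs to this list and to the monocyte markers, stood at 528 and 208 CPM at day 7 and 56.3 and 19.95 CPM at day 14 (log2 difference -3.32, SE 0.70). Hspa1a, an inducible heat shock protein whose reads may be shared with its near-identical copy Hspa1b, stood at 36.5 and 54.5 CPM at day 7 and 4.40 and 6.90 CPM at day 14. The dissociation response moved in the same direction as Tnf and Nfkbia in these libraries, and its part in their values was not tested.

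The 14 lower genes of smallest p, with at least 10 counts in each day 14 library and a mean of 10 CPM, had fitted log2 differences from -8.19 to -3.01, unadjusted p from 0.000209 to 0.00122 and adjusted p of 0.549 to 0.731 by edgeR. DESeq2 called all 14 and edgeR called 5 of them without the day 14 male library. First in order was Clec4e, or Mincle, a receptor for damaged cells and mycobacterial lipids (chromosome 6, 123281789 to 123289870, minus strand, GRCm38), at 30.6 and 149 CPM at day 7 and 0.531 and 6.90 CPM at day 14 (log2 difference -4.67, SE 0.96). Acod1, the enzyme that makes itaconate in activated macrophages (chromosome 14, 103046977 to 103056573, plus strand), stood at 25.8 and 70.4 CPM at day 7 and 2.88 and 4.13 CPM at day 14 (log2 difference -3.68, SE 0.76). In both genes the day 7 male library was the highest and the day 14 female library the lowest.

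Other genes of the 14 act outside the cell or on its surface. Ecm1, a secreted matrix protein, stood at 476 and 754 CPM at day 7 and 23.96 and 77.6 CPM at day 14, and Mmp8, a collagenase that neutrophils also store, at 107 and 130.4 CPM at day 7 and 5.73 and 15.4 CPM at day 14. Dpep2, a membrane dipeptidase of leukotriene metabolism, stood at 67.2 and 157 CPM at day 7 and 7.09 and 16.3 CPM at day 14, and Acp5, the tartrate-resistant acid phosphatase of osteoclasts and macrophages, at 145 and 359 CPM at day 7 and 18.6 and 32.8 CPM at day 14. For these 4 the day 7 male library was the highest of all and the day 14 female library the lowest. F13a1, the subunit of clotting factor XIII that macrophages make, stood at 646 and 662 CPM at day 7 and 34.2 and 77.4 CPM at day 14, and the chemokine Pf4 at 77.6 and 264 CPM at day 7 and 7.20 and 14.01 CPM at day 14. Both belong to the markers of border-associated macrophages.

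In 2 of the 14 the difference rested on the male libraries in size. Saa3, an acute phase protein, stood at 11.4 and 4471 CPM at day 7 and 3.11 and 8.59 CPM at day 14, and Arg1, the arginase of repair-type macrophages, at 14.2 and 794 CPM at day 7 and 3.75 and 1.77 CPM at day 14. The day 7 male library was the one high value of each, and the day 7 female value was still above either day 14 value.

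Matrix and iron genes showed the same lean. Of 31 genes of matrix remodelling and adhesion, 15 had both day 14 libraries below both day 7 libraries and 1 had them above, with a median log2 difference of -0.83. Here and for the iron list below, the share lower was 15.4% of all genes and 24% of those at 10 CPM or more. Mmp14, a membrane-bound metalloproteinase chosen after its values were seen, stood at 205 and 113 CPM at day 7 and 4.47 and 76.8 CPM at day 14. Serpine2, a protease inhibitor, was higher in females and lower in males at 719.7 and 672 CPM at day 7 and 1518 and 487 CPM at day 14. Of 24 genes of iron, heme and antioxidant defence, 14 were lower by both libraries and 2 higher, with a median of -0.92. At an unadjusted edgeR p under 0.05 there was 1 in each direction, against 2.19% of all genes lower and 3.33% higher. Ftl1, the ferritin light chain that stores iron, stood at 21185 and 30329.7 CPM at day 7 and 11494 and 9026 CPM at day 14, Prdx1, a peroxidase, at 515 and 748 CPM at day 7 and 384 and 266 CPM at day 14, and Hmox1, which breaks down heme (chosen after its values were seen), at 219 and 256 CPM at day 7 and 64.8 and 89.6 CPM at day 14. Across the wound days Hmox1 was highest at day 4, at 1539 and 2565 CPM.

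**Figure D2:**
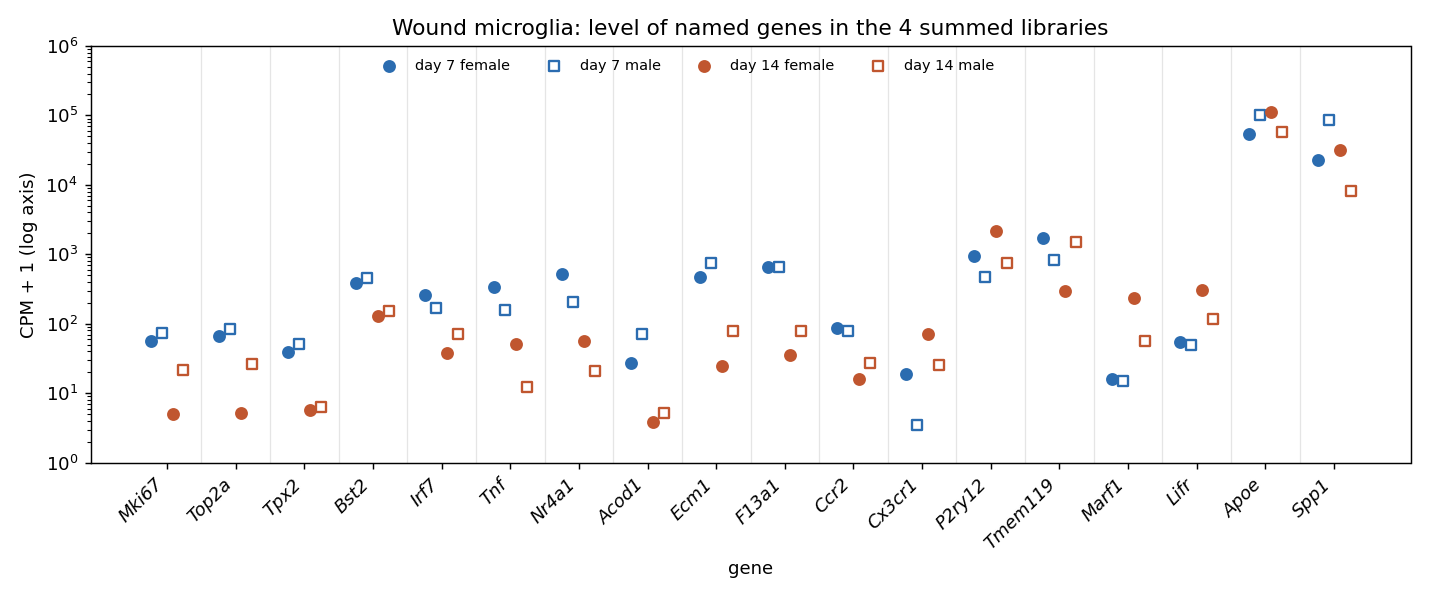
Level of named genes in the 4 libraries, as CPM plus 1 on a log axis, with 1 symbol a library and female symbols filled. The mitotic, interferon and cytokine genes have both day 14 symbols under both day 7 symbols, while Apoe, Spp1 and Tmem119 have the sexes in opposite order.

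Genes of the resting microglial state had no member with both day 14 libraries below both day 7 libraries. Of 26 members, 4 had both day 14 libraries above (Cx3cr1, Sall1, Rhob and Cst3) and 22 overlapped, against 11% and 15.4% of all genes above and below. The median log2 difference was 0.51. Of the members, 2 had an unadjusted edgeR p under 0.05, Cx3cr1 and Siglech, both higher, against 3.33% of all genes. Cx3cr1, the fractalkine receptor, whose locus carries the recombinase in 1 of its alleles, stood at 17.7 and 2.47 CPM at day 7 and 70.1 and 24.4 CPM at day 14 (log2 difference 2.61, SE 1.01). Siglech, a sialic acid receptor of microglia, stood at 251 and 50.9 CPM at day 7 and 578 and 226 CPM at day 14, and Cst3, a secreted protease inhibitor, at 3481 and 3604 CPM at day 7 and 15519 and 4299.5 CPM at day 14. Rhob, a small GTPase, stood at 76.2 and 55.2 CPM at day 7 and 141 and 130.4 CPM at day 14. Siglech and Rhob were chosen after their values were seen. P2ry12, the ADP receptor by which resting processes find damage, was higher within each sex at 958 and 478 CPM at day 7 and 2145 and 759 CPM at day 14, yet the day 14 male value lay below the day 7 female value.

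The sexes went apart for several of these genes. Tmem119, a membrane protein of unknown role that marks microglia, stood at 1726 and 832 CPM at day 7 and 297 and 1521 CPM at day 14: lower in females and higher in males. Csf1r, the receptor on which microglial survival depends, was chosen after its values were seen. It went the same ways as Tmem119, at 4817 and 1062 CPM at day 7 and 1391 and 4405 CPM at day 14. The log2 ratio of Tmem119, from CPM plus 1, was -2.53 in females and 0.87 in males, and with 1 library for each day and sex this difference was not tested.

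Genes of the disease-associated state, induced in microglia around lesions and plaques, had no common direction. Of 30, 9 had both day 14 libraries lower and 4 higher, 0 had an unadjusted p under 0.05 in either direction, and the median was -0.23. Of genes at 10 CPM or more, 24% were lower and 9.01% higher by both libraries. Apoe, the main lipid carrier of the brain, stood at 53592 and 102483 CPM at day 7 and 112611 and 58152 CPM at day 14, and Spp1, or osteopontin, at 22948 and 86351 CPM at day 7 and 31969 and 8120 CPM at day 14. Both were higher in females and lower in males. Apoe's fitted difference of -0.20 was above 0 with library size alone as the scaling (0.09), so no direction is given for it. Members chosen after their values were seen went both ways. Gpnmb, a glycoprotein of lysosome-rich macrophages, stood at 5324 and 4366 CPM at day 7 and 509.6 and 2885 CPM at day 14, and Lgals3, a galectin, at 555 and 782 CPM at day 7 and 111 and 388 CPM at day 14. Trem2, the lipid receptor, stood at 1296 and 1357 CPM at day 7 and 959.5 and 895 CPM at day 14 and its adaptor Tyrobp at 1077 and 1180.1 CPM at day 7 and 418 and 890.4 CPM at day 14. Lpl, the lipoprotein lipase, stood at 194 and 187 CPM at day 7 and 634 and 287 CPM at day 14, the integrin Itgax at 65.8 and 41.02 CPM at day 7 and 132 and 71.5 CPM at day 14 and the cystatin Cst7 at 217 and 131 CPM at day 7 and 416 and 285 CPM at day 14. Lpl, Itgax and Cst7 thus had both day 14 libraries above both day 7 libraries, and Gpnmb, Lgals3, Trem2 and Tyrobp had both below.

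Lipid, lysosome and complement genes held both directions, with more members lower than higher by both libraries. For lipid efflux and storage, 6 of 20 were lower by both libraries and 2 higher, with a median log2 difference of -0.67. Here and for the lysosomal list below, those shares were 24% and 9.01% of genes at 10 CPM or more. At an unadjusted edgeR p under 0.05, 4 lipid genes were lower and 0 higher, against 2.19% and 3.33% of all genes. Abcg1, a cholesterol exporter, stood at 1591 and 3715 CPM at day 7 and 19822 and 1579.9 CPM at day 14, with the day 14 female library alone high. Npc2, which moves cholesterol out of lysosomes, stood at 1321 and 1757 CPM at day 7 and 1442 and 816 CPM at day 14. Plin2, the coat of lipid droplets, and Apoc2, a cofactor of lipoprotein lipase, were chosen after their values were seen: Plin2 stood at 652 and 1274 CPM at day 7 and 269 and 254 CPM at day 14 and Apoc2 at 80.8 and 322 CPM at day 7 and 79.9 and 11.04 CPM at day 14. For lysosomal genes 13 of 32 were lower and 1 higher, with a median of -0.59 and 0 at an unadjusted p under 0.05. Ctss, a cathepsin of antigen processing, stood at 11384 and 14209.9 CPM at day 7 and 17099.5 and 7058 CPM at day 14, and Lgmn, an asparagine-specific protease, at 8496 and 11667 CPM at day 7 and 10669.5 and 4679 CPM at day 14. The 1 higher was Atp6v0d2, a proton pump subunit, at 33.6 and 40.4 CPM at day 7 and 95.2 and 112 CPM at day 14.

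The complement list had 7 of 16 members lower by both libraries and 2 higher, with a median of -0.50. Here and for the MHC lists below, those shares were 24% and 9.01% of genes at 10 CPM or more. At an unadjusted edgeR p under 0.05, 3 complement genes were lower and 0 higher, against 2.19% and 3.33% of all genes. C1qb, a chain of the initiator C1q that microglia make, stood at 7329.8 and 7366 CPM at day 7 and 4177 and 5389.7 CPM at day 14. C1qc, another chain, stood at 5971 and 4747 CPM at day 7 and 1350 and 4487 CPM at day 14. Cfb and Cfp, both of the alternative pathway, were chosen after their values were seen. Cfb stood at 124 and 147 CPM at day 7 and 22.1 and 20.5 CPM at day 14 and Cfp at 115 and 394 CPM at day 7 and 0 and 34.7 CPM at day 14. For the MHC class I list, 7 of 17 were lower and 2 higher, and these related genes may share reads: H2-K1 stood at 2036 and 1742 CPM at day 7 and 938 and 977 CPM at day 14 and H2-D1 at 5363 and 4604 CPM at day 7 and 1978 and 3202 CPM at day 14. For MHC class II, 2 of 10 were lower and 1 higher, and H2-Aa stood at 420.2 and 225 CPM at day 7 and 120.2 and 232 CPM at day 14.

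In energy metabolism, glycolytic genes and the nuclear genes of the respiratory chain were lower or overlapping, and the genes of the mitochondrial genome were higher or overlapping. Of 20 glycolytic genes 10 had both day 14 libraries lower and 0 higher, with 0 at an unadjusted p under 0.05 and a median of -0.63. Here and for the lists that follow, the shares were 24% and 9.01% of genes at 10 CPM or more. Eno1, an enolase, stood at 1606 and 1935 CPM at day 7 and 546 and 761 CPM at day 14, and Pkm, the last enzyme of glycolysis, at 1270.3 and 1456 CPM at day 7 and 291 and 785 CPM at day 14. Of 39 nuclear genes of the respiratory chain 14 were lower by both libraries and 0 higher, with a fitted median of -0.57, a female median of 0.28 and a male median of -1.20. Of the 13 genes of the mitochondrial genome 5 were higher by both libraries and 0 lower, with a fitted median of 0.71, a female median of 1.11 and a male median of 0.38. The days overlapped for others of them: mt-Cytb stood at 3065 and 12342 CPM at day 7 and 39239 and 3904 CPM at day 14 and mt-Atp6 at 432 and 6093 CPM at day 7 and 12319 and 3831 CPM at day 14, so that the day 14 female library was the highest for both and these genes had opposite signs in the sexes. Ribosomal protein genes had 11 of 75 lower and 3 higher, with a median of -0.35.

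**Figure D3:**
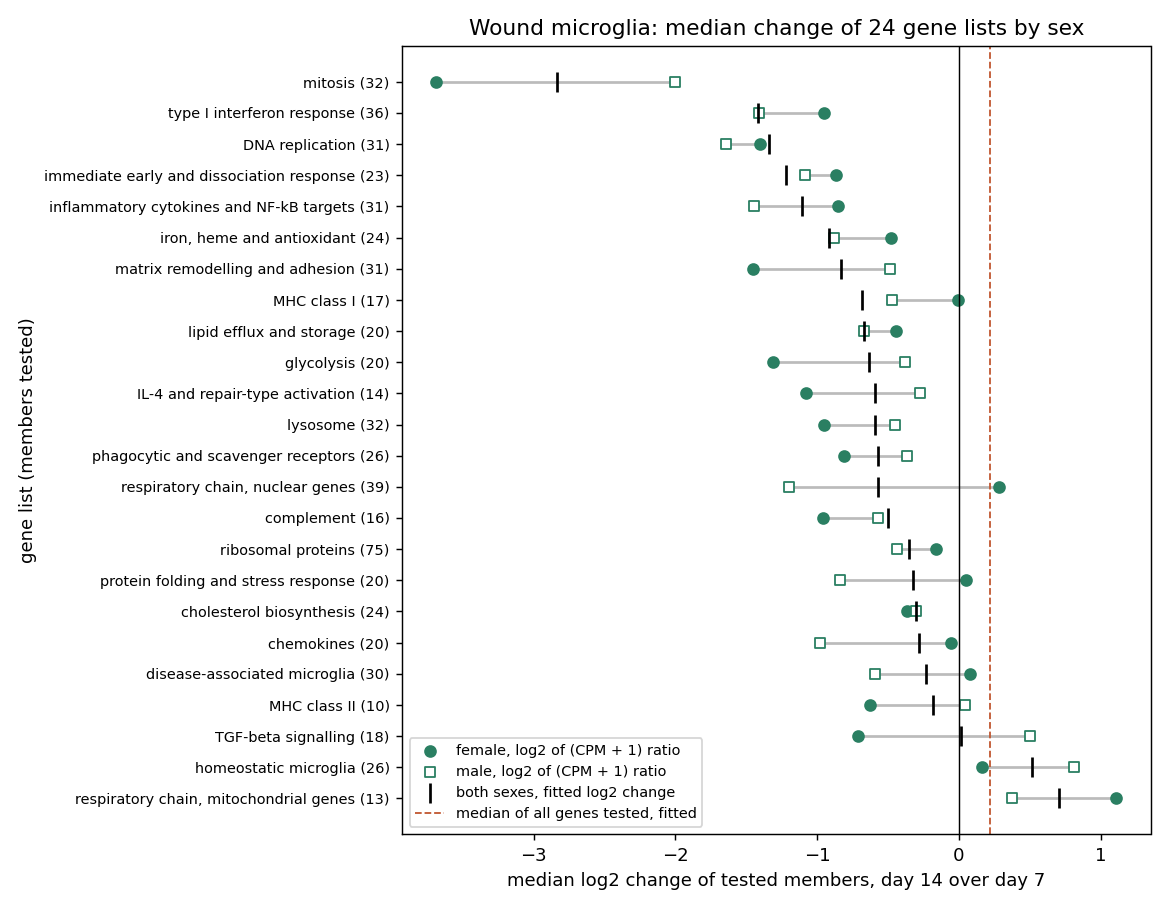
Median log2 difference, day 14 over day 7, of the tested members of 24 gene lists: filled circles for females, open squares for males (ratios of CPM plus 1) and a bar for the fitted value of both sexes, with the median of all genes tested as a dashed line at 0.22. Mitosis is farthest to the left at -3.69 in females, -2.005 in males and -2.83 fitted.

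Among higher genes, 14 were chosen by smallest p under the same rule. Their fitted log2 differences ran from 1.84 to 4.21, with unadjusted p from 0.000768 to 0.0134 and adjusted p from 0.677 to 0.731 by edgeR. DESeq2 called 6 of them, and edgeR called 8 without the day 14 male library. Marf1, a protein that destabilises RNA (chromosome 16, 14109173 to 14163351, minus strand, GRCm38), stood at 15.01 and 14.2 CPM at day 7 and 236 and 54.9 CPM at day 14 (log2 difference 3.09, SE 0.74, DESeq2 adjusted p 0.00639). Its day 7 values were nearly equal and its day 14 values differed between the libraries by more than those. Lifr, a receptor of the interleukin-6 family, stood at 54.3 and 48.8 CPM at day 7 and 306 and 114 CPM at day 14. Cyyr1 stood at 0.880 and 1.42 CPM at day 7 and 31.7 and 11.8 CPM at day 14, and St8sia6, a sialyltransferase, at 5.84 and 4.08 CPM at day 7 and 50.4 and 23.8 CPM at day 14.

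Some of the 14 are known as neuronal genes, and were low at day 7. Meg3, a long non-coding RNA that is also in the neuron marker list, stood at 1.17 and 6.42 CPM at day 7 and 15.3 and 48.01 CPM at day 14, and Arpp21, a phosphoprotein regulated by cyclic AMP, at 0.533 and 5.50 CPM at day 7 and 21.7 and 14.7 CPM at day 14. Csmd3, a transmembrane protein of the complement-control kind, stood at 5.71 and 1.27 CPM at day 7 and 34.5 and 19.9 CPM at day 14, and Akap5, an anchor of protein kinase A, at 1.31 and 2.88 CPM at day 7 and 58.4 and 7.87 CPM at day 14. By edgeR none of the neuron markers passed an adjusted p of 0.05, while DESeq2 called 1 of them higher, Meg3, at an adjusted p of 0.0286. The summed level of the neuron markers was 65.9 and 89.1 CPM at day 7 and 104 and 349 CPM at day 14. Of the 17, 5 were higher by both libraries and 0 lower, against 11% and 15.4% of all genes, with a median log2 difference of 1.42. The median ratio was 0.17 in females, with 7 lower, and 1.45 in males, with 1 lower. Camk2a, the member of highest mean CPM, had a fitted difference of -0.38, and its sexes had opposite signs. On a scale set over all 16 libraries, it stood at 47.7 and 13.7 CPM at day 7 and 0.942 and 135 CPM at day 14. Map2, a dendritic protein, stood at 6.91 and 25.97 CPM at day 7 and 17.97 and 48.05 CPM at day 14. The part of neuronal RNA in the higher genes was not tested. The remaining genes of the 14 were Pik3c2b, a lipid kinase, at 1.89 and 2.34 CPM at day 7 and 56.5 and 4.66 CPM at day 14, Arap3, a GTPase regulator, at 44.7 and 43.5 CPM at day 7 and 456 and 64.4 CPM at day 14, and Rapgef5, an exchange factor, at 10.6 and 11.8 CPM at day 7 and 55.2 and 32.6 CPM at day 14. Cspp1, a centrosomal protein, stood at 13.97 and 5.50 CPM at day 7 and 46.03 and 40.2 CPM at day 14, Sult1a1, a sulfotransferase, at 7.95 and 4.40 CPM at day 7 and 43.2 and 20.2 CPM at day 14, and the transcription factor Carf at 6.24 and 12.02 CPM at day 7 and 75.1 and 21.997 CPM at day 14. Arap3 and Pik3c2b were high in the day 14 female library and at 64.4 and 4.66 CPM in the male one.

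Among markers of other myeloid cells, most of those of monocytes were lower at day 14, while 8 of 14 for border-associated macrophages and 11 of 15 for neutrophils overlapped between the days. Of 17 monocyte markers, 10 had both day 14 libraries lower and 1 higher, against 15.4% and 11% of all genes. At an unadjusted edgeR p under 0.05 there were 8 lower and 1 higher, against 2.19% and 3.33%. The summed level was 1129.6 and 1157 CPM at day 7 and 414 and 509 CPM at day 14. Fn1, the marker of highest mean CPM, had a fitted log2 difference of 0.11. Without Fn1 the sum was 898 and 875 CPM at day 7 and 184 and 188 CPM at day 14. The 1 marker higher by both libraries was Ly6c1, a surface protein that endothelial cells also carry, at 4.05 and 4.40 CPM at day 7 and 23.4 and 17.5 CPM at day 14, named after its values were seen. Chil3, F10, Gm9733, Hp, S100a4 and Ace were at 0 in the day 14 female library and none was at 0 in the others. Of 14 markers of border-associated macrophages, 6 were lower by both libraries and 0 higher, with 2167 and 3268 CPM at day 7 and 996 and 789 CPM at day 14 and no marker at 0. Ms4a7, a membrane protein of these macrophages, stood at 822 and 1896 CPM at day 7 and 619 and 344 CPM at day 14. Of 15 neutrophil markers 4 were lower and 0 higher, with 529 and 526 CPM at day 7 and 60.7 and 366 CPM at day 14. Of the defining genes Ly6g was at 0 in 3 of the 4 libraries, and 9 of the 15 were at 0 in the day 14 female library. Csf3r, the receptor of a granulocyte growth factor, stood at 387 and 156 CPM at day 7 and 50.1 and 286 CPM at day 14, lower at day 14 in females and higher in males. The summed levels of these lists were lower in both day 14 libraries, as were Clec4e, Arg1, F13a1, Pf4 and Mmp8, and the part of such cells in those genes' values, or in those of the interferon and mitotic lists, was not tested.

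Among other cells outside the myeloid line, T cell markers were low and astrocyte markers had no common direction. T cell markers summed to 51.9 to 76.6 CPM in the 4 libraries. Of astrocyte markers 2 of 14 were lower and 3 higher, and Gfap stood at 214 and 432 CPM at day 7 and 160 and 192 CPM at day 14. Of oligodendrocyte markers 0 of 13 were lower by both libraries and 3 higher, against 15.4% and 11% of all genes. An unadjusted edgeR p under 0.05 was reached by 2, both higher, against 3.33% of all genes. The list summed to 587 and 953 CPM at day 7 and 1051 and 1603 CPM at day 14. Without the myelin gene Mbp, the sum was 246 and 685 CPM at day 7 and 955 and 590 CPM at day 14. In each sex 6 of the 13 were lower. Mbp stood at 341 and 268 CPM at day 7 and 96.1 and 1013 CPM at day 14, with the day 14 male library high.

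Beyond these lists the sexes often went opposite ways. Of the same 8177 genes, 4908 (60.0%) had log2 ratios of opposite sign in the sexes. Ratios of at least 2-fold numbered 3846 in females and 2834 in males, of which 288 were at least 2-fold lower in both and 81 at least 2-fold higher in both. The ratios had a Pearson correlation of -0.28 and a Spearman correlation of -0.31 across genes, which share the 4 libraries and are not independent replicates. Ratios below 0 in both sexes were found for 27.7% of these 8177 genes. All 28 mitotic genes at 10 CPM or more had them, as did 28 of 34 interferon genes and 0 of 25 resting-state genes.

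**Figure D4:**
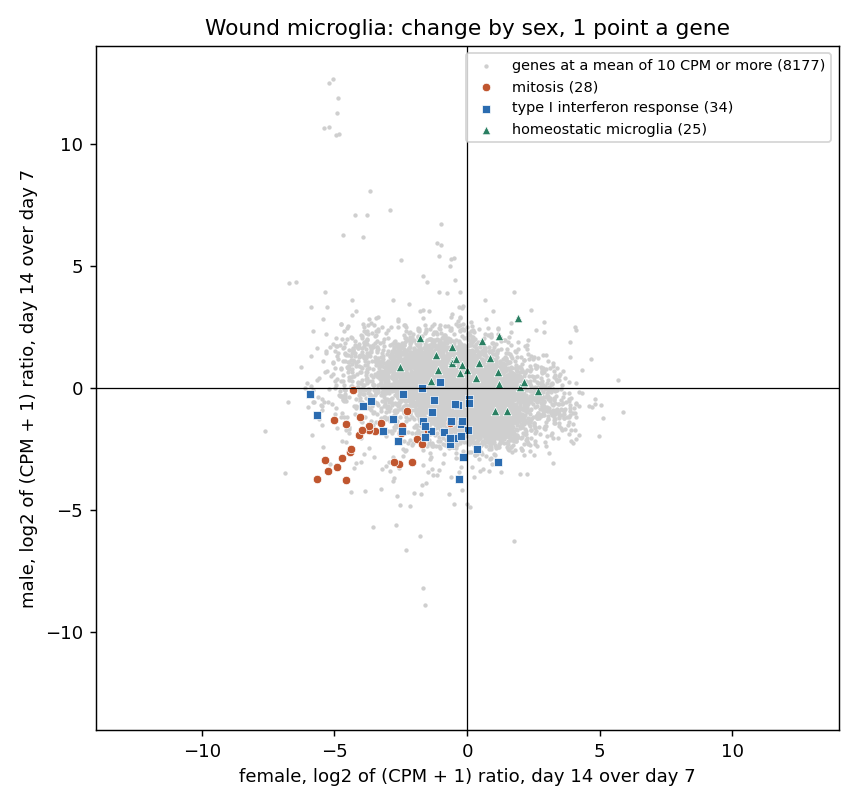
Log2 ratio of day 14 over day 7 (CPM plus 1) in females on the horizontal axis and in males on the vertical axis, with 1 point a gene for 8177 genes and 3 lists coloured. The 28 mitotic genes lie at the lower left, below 0 on both axes, as do 28 of the 34 interferon genes.

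Whether the wound differed from the other hemisphere in its change from day 7 to day 14 was tested in 1 model of all 16 libraries, with day and sex as pairs. By edgeR, 0 of 28597 genes passed an adjusted p of 0.05 (0% called), the smallest was 0.421, and 3358 (11.7%) had an unadjusted p under 0.05. For the mitotic list, the wound difference minus the non-injured one had a median of -1.84 on the log2 scale, with 9 of 32 members at an unadjusted p under 0.05. On the non-injured side the same genes summed to 200.4 and 319 CPM at day 7 and 47.3 and 228 CPM at day 14, on a scale set over all 16 libraries. They were thus lower at day 14 there too in both sexes, with median log2 ratios of -2.68 in females and -0.53 in males. Interferon genes had a median difference of -0.58 with 2 of 36 at an unadjusted p under 0.05, and on the non-injured side summed to 1188 and 3052 CPM at day 7 and 1476 and 751 CPM at day 14. Markers of border-associated macrophages had -2.04 with 4 of 14, and resting-state genes -0.02 with 0 of 26. In a fit of the non-injured libraries alone, the log2 differences of the 14 lower genes of smallest p were also below 0. They ran from -14.3 for Saa3 to -0.04 for Pf4, and the wound-minus-non-injured differences from -4.71 for Pf4 to 4.54 for Saa3. On the 16-library scale the non-injured side had Saa3 at 0.350 and 2840 CPM at day 7 and 0 and 0.0900 CPM at day 14. Arg1 stood there at 0.408 and 157 CPM at day 7 and 1.60 and 0.450 CPM at day 14.

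The 6 genes of smallest p in that test were Hist1h2ap, Rn7s2, Abhd2, Nfrkb, Irak3 and Qsox2. Hist1h2ap, a replication-dependent histone gene with near-identical copies among which reads may have been split, had a wound-minus-non-injured difference of -3.83. Rn7s2, an RNA of the signal recognition particle, had -3.28, and Abhd2, a lipid hydrolase, had -2.39. Irak3, a brake on Toll-like receptor signalling, had a fitted 7.74, which depends on the prior count because its non-injured day 14 libraries were at or near 0. On the scale of the 16 libraries it was at 50.1 and 63.6 CPM at day 7 and 32.3 and 3.61 CPM at day 14 at the wound, and on the non-injured side at 12.4 and 21.8 CPM at day 7 and at 0 and 0.0300 CPM at day 14. Nfrkb, a subunit of a chromatin remodelling complex, had 3.21, and Qsox2, a sulfhydryl oxidase, had -3.11. Fitted alone, the non-injured side also had the 14 higher genes of smallest p above 0, from 0.27 (St8sia6) to 3.07 (Marf1). Their wound-minus-non-injured differences ran from -0.40 for Marf1 to 2.23 for Arpp21. Cx3cr1 had 2.22 on that side and a difference of -0.02. On the 16-library scale Arap3 stood there at 201 and 174 CPM at day 7 and 1453 and 103 CPM at day 14. Pik3c2b stood there at 5.68 and 3.16 CPM at day 7 and 58.1 and 6.54 CPM at day 14.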

How the data were processed

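RNA of EYFP+ cells sorted from the cortex was amplified with SMART-Seq v4 and made into unstranded Nextera XT libraries, per the labels' protocols. The estimated counts and TPM per gene were deposited by the authors, who used Salmon 1.0.0 and DESeq2 1.26.0 per the submitters' processing notes. The genome build is not given in the sources used here. Without strand, reads of a gene and of an overlapping or antisense gene cannot be told apart.

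The columns of each group were summed and the sums rounded. Symbols came from the deposited tables for 55385 identifiers, and positions from GENCODE M21 (GRCm38) for 55144 of them. The main test was edgeR 4.0.16 in R 4.3.3: TMM scaling, filterByExpr at a minimum count of 10 by day, means for each of 4 days plus a sex term on 8 wound libraries (3 residual degrees of freedom), glmQLFit and glmQLFTest in their current form, and Benjamini-Hochberg adjustment with calls under 0.05. The wound was compared with the non-injured side in a fit of 16 libraries with 8 means for day and sex. The non-injured libraries were also fitted alone, with day means and a sex term. Scripts were tested on simulated counts. Sexes are given as log2 ratios of CPM plus 1, without a test. Alternatives were DESeq2 1.42.0, limma 3.58.1 on log2(TPM + 1) and log2(TPM + 0.1), other scalings, filters and sample sets, and each library left out.

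The gene lists (24 of genes and 15 of cell type markers) and the named members were chosen with earlier results of these data known, and a list is described by counts and medians without a test of the list. Named genes are the 14 higher and 14 lower of smallest unadjusted p (edgeR called none), with a mean of 10 CPM, both day 14 libraries beyond both day 7 libraries and 10 counts in each library of the lower day, excluding unnamed gene models and pseudogenes. To these were added members of most counts in a list, 8 fixed genes (Cx3cr1, P2ry12, Tmem119, Apoe, Spp1, Mki67, H2-Aa and Ccr2) and the 6 of smallest p between the sides. Genes outside this rule are marked as chosen after their values were seen. Not marked are the markers that checked the cells, the genes with promoters shown and members that make up a stated count. Motif shares are given for lists because edgeR called no gene. Promoter windows of 1 chromosome were not used here. Some items are not reported here.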

Additional observations from a re-analysis of the deposited data

Results flagged for a closer look

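For several lists and genes the female libraries went one way between day 7 and day 14 and the male libraries the other. Each sex has 1 library a day, so these differences were not tested, and the values are log2 ratios of CPM plus 1, female minus male. Tmem119 had a difference of -3.40 (-2.53 in females, 0.87 in males), Apoe 1.89 (1.07 and -0.82) and Spp1 3.89 (0.48 and -3.41). Among list medians, nuclear genes of the respiratory chain had 1.48 (0.28 and -1.20) and TGF-beta signalling -1.22 (-0.71 and 0.50). Astrocyte markers had 1.24 (0.84 and -0.40) and endothelial markers -1.15 (-0.12 and 1.03). The differences were -0.824 for NK cell, -0.412 for B cell, -0.566 for dendritic cell, -1 for oligodendrocyte precursor and -0.722 for mural markers.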

How the results depend on the processing

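Calls depended on the processing, and the cause was not tested. Against 0 higher and 0 lower genes as reported, DESeq2 called 36 and 55 and no filter on low counts 5 and 42. Keeping the 16 columns separate, edgeR called 3260 and 1824 without a block, and with the replicate number as a block, 2817 and 1525. Those fits take near-identical columns as replicates. The numbers do not pair the samples: over 6 pairs of groups the deviations of same-numbered columns had correlations of -0.019 to 0.025 across genes. Leaving out 1 library in turn gave 0 to 117 higher and 0 to 510 lower genes, the highest without the day 14 male library and 15 and 23 without the day 7 female library. There the lone library of a day is assumed to vary like the others. The remaining alternatives called 0, among them the older form of edgeR's test, added after seeing the data. Between sides, every alternative called 0.

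Scaling by library size alone moved the median log2 difference of all genes from 0.22 to 0.37, and median-ratio scaling to 0.33. The sign of the median held under all 23 alternatives for 24 of 39 lists. Ranges were -5.25 to -2.02 for mitosis, -2.08 to -1.02 for DNA replication, -1.65 to -1.02 for interferon genes and 0.14 to 0.69 for the resting-state list. Of 120 named genes 102 kept their sign. Apoe was 0.085 by library size alone, 0.315 on either TPM scale, 0.019 with the stricter filter of 50 counts, 0.130 without the sex term, and 0.172 and 0.169 with the 4 libraries of days 7 and 14 alone, with and without sex. With all 16 libraries Mbp was -0.170 and Nfrkb -0.141. Csf1r was -0.021 without the sex term. Rn7s2 was -2.22 and -2.60 on the TPM scales and -1.67 with 4 libraries and sex. Leaving out 1 library turned the following, with ranges of -2.64 to 0.718 for Tmem119, -1.19 to 1.47 for Apoe, -3.06 to 0.079 for Spp1, -1.67 to 0.287 for Rfc2, -1.66 to 0.445 for Pcna, -0.284 to 1.25 for Cd86, -0.437 to 0.857 for Serpine2, -1.66 to 1.66 for Csf1r and -1.49 to 0.278 for Aif1. The ranges were -0.763 to 3.18 for Abcg1, -1.05 to 0.344 for Ctss, -1.28 to 0.249 for Lgmn, -1.47 to 3.06 for mt-Cytb, -0.514 to 4.28 for mt-Atp6, -2.97 to 0.644 for Csf3r, -1.69 to 1.51 for Mbp, -1.17 to 0.877 for Nfrkb and -9.83 to 3.92 for Rn7s2. In the day 14 female library 3 counts, the limit that 0 counts allow, are 0.114 CPM, so values under it cannot be ranked.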

Other observations

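Some genes were high in single libraries of a day, and are given here as values chosen after they were seen. In the day 14 female library alone, Srsf2, a splicing factor, stood at 2208 CPM against 41.7 and 31.3 CPM at day 7 and 40.2 CPM in the day 14 male library. Chst2, a sulfotransferase, stood at 1412 CPM there against 23.01, 75.7 and 38.3 CPM, and C5ar2, a receptor of complement C5a, at 618 CPM against 16.5, 42.6 and 17.8 CPM, in the same order. Postn, the matrix protein periostin, stood at 92.8 CPM against 1.87, 4.08 and 2.13 CPM.

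A set of unnamed gene models was high in the day 14 male and day 7 female libraries and near 0 in the day 7 male library. Gm10800 stood at 1079 and 0.443 CPM at day 7 and at 31.5 and 9213 CPM at day 14, and Gm10718 at 527 and 0.0633 CPM and at 13.2 and 6040 CPM. Gm10721, Gm10719, Gm21738, Gm10801, Gm11168 and Gm10717 had the same order of the 4 libraries.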
